A study of Mus musculus with 24 samples.

Results

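The MAP kinase phosphatases described here are 10 members of the dual-specificity phosphatase (Dusp) family, measured in mouse hippocampus after fear conditioning at 3 and 16 months of age. The members, Dusp1, Dusp2, Dusp4, Dusp5, Dusp6, Dusp7, Dusp8, Dusp10, Dusp14 and Dusp16, were taken as every microarray probe that carries one of these gene names. This gave 13 of 41174 probes on the array and 9 of 26632 genes tested. Dusp5, a nuclear phosphatase of ERK, is the only member that no probe names, and it was not analysed here. No rule on signal was used to choose the members. Of the 13 probes, 12 were well above background on all 24 arrays, including the probe that stands for each of the 9 genes, and 0 were saturated.

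MAP kinases are switched on when a threonine and a tyrosine in the activation loop are both phosphorylated, and the phosphatases of this family switch them off by removing both phosphates. The members differ in where they act and on which kinase. Dusp1, Dusp2 and Dusp4 are nuclear and are themselves transcribed in response to the signals they terminate, Dusp6 and Dusp7 act on ERK in the cytoplasm, Dusp8, Dusp10 and Dusp16 prefer the stress kinases JNK and p38, and Dusp14 is a small phosphatase without the kinase-binding domain of the others. In the hippocampus ERK signalling is needed for contextual fear memory, and Dusp1 is known as a gene that neuronal activity induces within an hour.

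All mice were of the C57Bl/6 strain, and each array held hippocampal RNA of 1 mouse. Young controls and old controls were handled mice of 3 and 16 months without training. The young fear and old fear groups, of the same ages, spent 3 min in a conditioning chamber that ended in a foot shock of 0.7 mA for 2 s. The young context group, aged 3 months, entered the chamber and received no shock, and the young shock-context group, aged 3 months, was shocked at once on entry and explored the chamber only afterwards. Tissue was taken 1 h after the treatment, each group had 4 mice, and no genetic change is part of the design. The question was which hippocampal genes respond to training at each age and which responses belong to the pairing of context and shock.

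Levels are given as log2 of the background-corrected signal minus the 75th percentile of the same array, so that 0 is the signal of a fairly bright probe and a step of 1 is a doubling. Probes differ in brightness, so levels are compared between groups and not between genes. The 16 control and fear arrays and the 8 context and shock-context arrays were run separately, with 75th percentiles of signal of 757 to 2137 and of 3101 to 8369. In the first run 86.2 to 93.9% of probes per array exceeded background clearly, and in the second 75.1 to 81.4%. The run and the group cannot be told apart where context or shock-context mice are set against control or fear mice. The array number limits the precision throughout. All 20 hippocampal neuron markers were well above background on every array. Between young fear and young control arrays, 0 of 19 measured choroid plexus markers passed as higher and 19 as lower. Their summed level, on the linear scale, was 6.84 to 10.0 on the young fear arrays and 57.2 to 93.0 on the young controls, with 18 of 19 still well above background on all 4 young fear arrays. Thalamus markers lay at 62.8 to 71.5 against 42.7 to 48.8, with 13 of 20 higher and 1 lower. Astrocyte markers lay at 75 to 81.6 against 126 to 142, with 2 of 10 higher and 5 lower, and blood cell markers at 8.71 to 14.0 against 21.3 to 27.7, with 0 of 7 higher and 5 lower. Microglia markers lay at 34.1 to 37.4 against 45.1 to 59.6, with 3 of 15 higher and 6 lower, and oligodendrocyte markers at 172 to 188 against 139 to 148, with 6 of 12 higher and 3 lower. Of all genes 13.2% passed as higher and 30.0% as lower in this comparison. The median log2 change of the microglia markers was 0.03, beside -0.34 over all genes, although their summed level was lower. The part of these tissue differences in the phosphatase results was not tested. In such bulk samples, fewer cells of a type and less RNA per cell cannot be told apart.

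The promoters of Dusp1, Dusp8 and Dusp7 are shown because Dusp1 and Dusp8 are the 2 members that rose after training in young mice and Dusp7 is the one with the steepest fall. Each is the 250 bases before the start of the gene, from RefSeq (GRCm38.p6), written 5′ to 3′ along the gene, with matches to the cyclic AMP response element (CRE, TGACGTCA) and to its core (TGACG, on either strand) in capitals.
Dusp1 (chr17:26508473-26508722, minus strand): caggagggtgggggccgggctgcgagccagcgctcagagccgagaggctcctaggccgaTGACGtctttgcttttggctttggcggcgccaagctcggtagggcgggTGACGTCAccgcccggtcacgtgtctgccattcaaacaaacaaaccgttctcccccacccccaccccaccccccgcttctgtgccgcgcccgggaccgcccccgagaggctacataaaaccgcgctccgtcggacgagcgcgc
Dusp8 (chr7:142095285-142095534, minus strand): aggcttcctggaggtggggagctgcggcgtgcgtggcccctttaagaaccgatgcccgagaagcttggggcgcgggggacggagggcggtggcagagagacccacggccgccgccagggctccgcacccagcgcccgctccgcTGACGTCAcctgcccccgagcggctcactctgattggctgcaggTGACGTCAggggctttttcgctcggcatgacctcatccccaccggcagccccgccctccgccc
Dusp7 (chr9:106368382-106368631, plus strand): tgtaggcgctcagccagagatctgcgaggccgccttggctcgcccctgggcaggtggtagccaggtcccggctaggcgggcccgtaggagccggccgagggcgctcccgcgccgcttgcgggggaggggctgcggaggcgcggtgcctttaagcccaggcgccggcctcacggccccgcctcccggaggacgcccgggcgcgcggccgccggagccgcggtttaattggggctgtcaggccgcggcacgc
The 5 motifs of factors that neuronal activity regulates were searched on both strands in the windows of 9 of the 10 members, the window of Dusp4 not being used here. Every CRE also holds the core, so these counts overlap. A full CRE was found once in the Dusp1 window, starting 143 bases before the gene start, and at 107 and 63 bases in the Dusp8 window. No other member's window held one, and 1.55% of all 32851 windows of the reference did. Dusp1 and Dusp8 were also the 2 members that passed as higher in young fear mice, of 8 measured members with a window. A part of the CRE in these rises was not tested. The members' windows held 56.4 to 77.2% G and C bases, against a median of 52.4% over all windows. The share of all windows is therefore not a matched background. The core was present as well in the windows of Dusp5 and Dusp16 (17.8% of all windows). The CArG box of serum response factor was found only in the Dusp5 window, at 82 and 72 bases (1.47% of all windows). Matches to the AP-1 site (TGACTCA, 4.46% of all windows) and the EGR1 site (GCGTGGGCG, 0.536%) were not found in any of the 9. A match is a description of the letters, not a measured binding site.

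Trained young mice were compared with young mice that were only handled, and the phosphatases differed between them in both directions. Of the 9 measured members, 2 rose (Dusp1 and Dusp8), 4 fell (Dusp2, Dusp7, Dusp10 and Dusp16), and Dusp4, Dusp6 and Dusp14 did not pass the threshold (limma, Benjamini-Hochberg adjusted p under 0.05). Over all genes 43.2% passed in this comparison, 13.2% as higher and 30.0% as lower, so these counts stand against a background in which a large part of the array changed. The median log2 change was -0.16 over the 9 members and -0.34 over all genes. Relative to that shift of all genes, the change was 0.92 for Dusp8, 0.82 for Dusp1, -0.19 for Dusp2, -0.22 for Dusp10, -0.18 for Dusp16 and -0.99 for Dusp7. The groups did not overlap for 4 members, 1 higher (Dusp8) and 3 lower (Dusp2, Dusp7 and Dusp10). Of all genes 41.3% did not overlap, 12.5% as higher and 28.9% as lower.

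**Figure D1:**
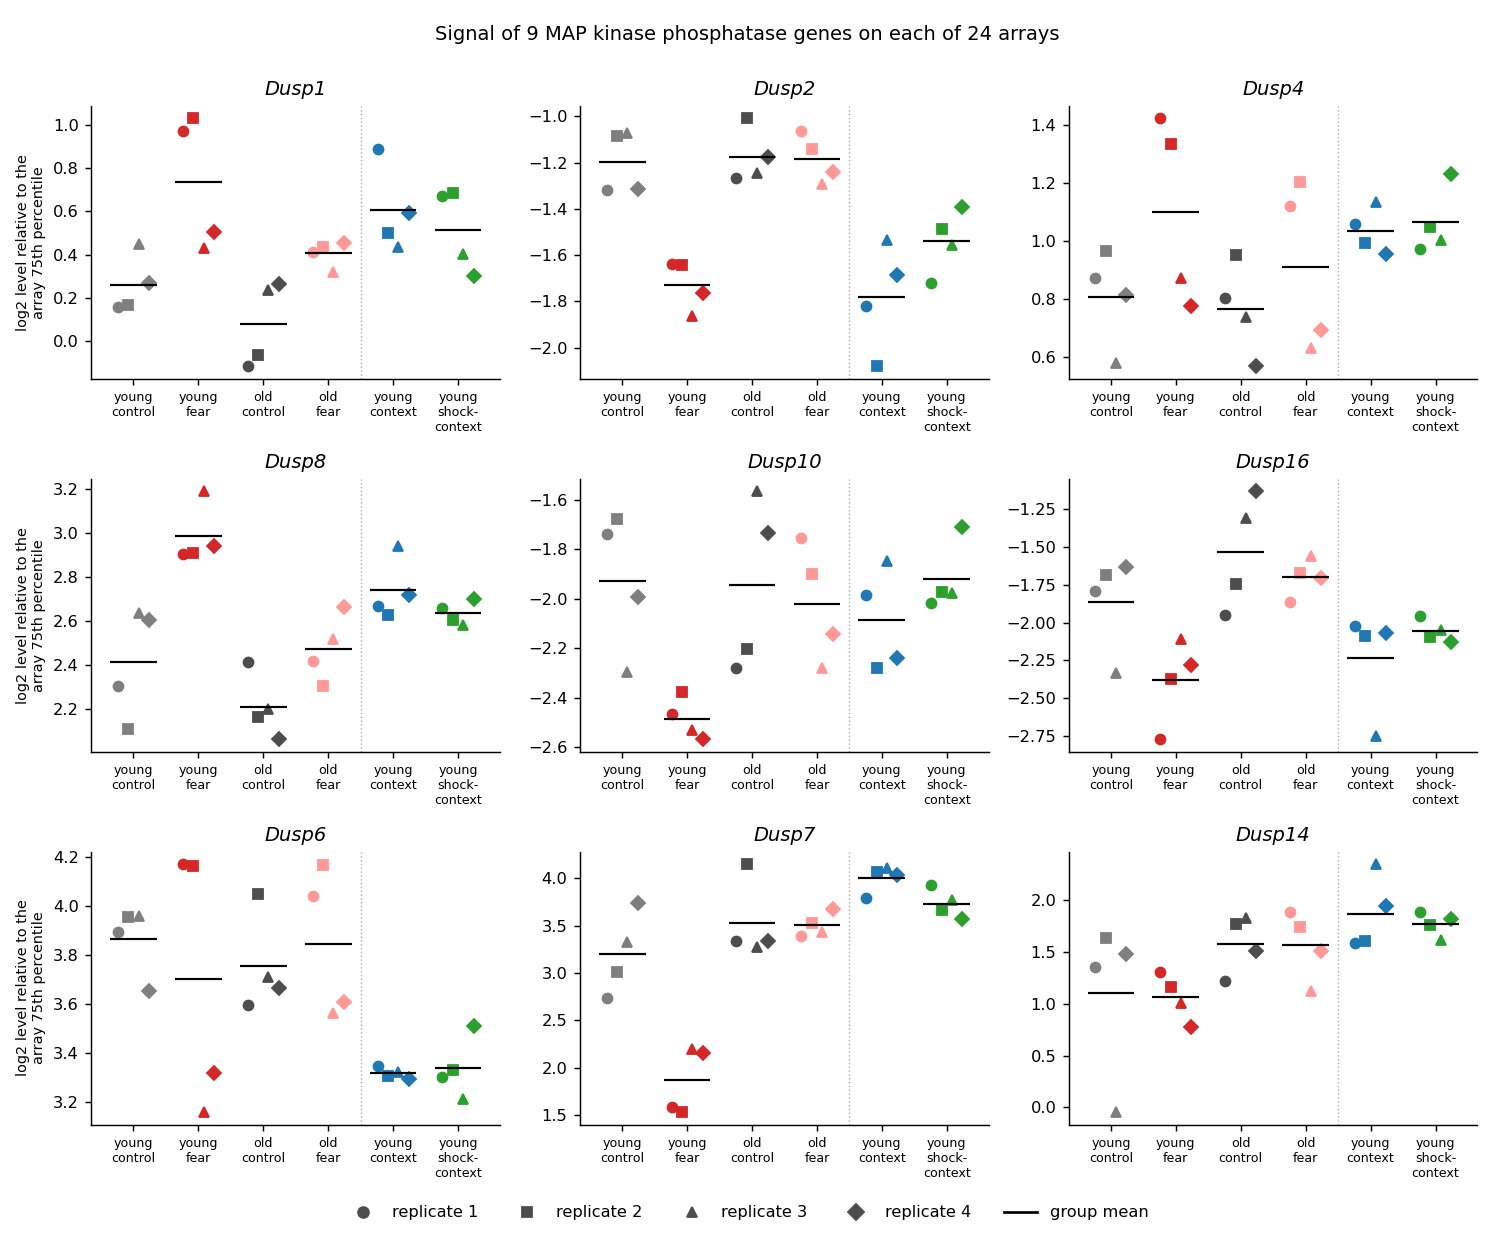
The y axis of each panel is the log2 level of 1 gene relative to the array's 75th percentile, and the x axis gives the 6 groups, with 1 point per array, a symbol for each replicate number and a line at the group mean. The dotted line separates the 2 array runs. All 4 young fear arrays lie lowest for Dusp7, at 1.53 to 2.20, and for Dusp6 the young fear arrays split into 4.16 and 4.17 on replicates 2 and 1 and 3.16 and 3.32 on replicates 3 and 4.

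Among the nuclear phosphatases, Dusp1 dephosphorylates p38, JNK and ERK. Its level was 0.16, 0.17, 0.45 and 0.27 on young control replicates 1 to 4 and 0.97, 1.03, 0.43 and 0.50 on young fear replicates 1 to 4. Replicates 1 and 2 of the trained mice lay above every control, while replicate 3 lay just below the highest control, so the groups overlapped. The log2 change was 0.47 ± 0.14 (SE, n = 4 arrays per group), or 1.39-fold higher, with a limma adjusted p of 0.0105. The call was lost with another background correction (normexp, 0.41, adjusted p = 0.0560) and when replicates 1 and 2, and 3 and 4, were averaged (adjusted p = 0.117). Dusp2, best known from activated lymphocytes, went the other way. Its level was -1.32, -1.08, -1.07 and -1.31 in young controls and -1.64, -1.64, -1.86 and -1.77 in young fear mice. The groups were apart, with a log2 change of -0.53 ± 0.11 (1.45-fold lower, adjusted p = 0.000582), and the call held in all 14 other settings, with values of -0.54 to -0.39. Dusp4, a nuclear phosphatase of ERK and JNK that is induced by ERK itself, lay at 0.87, 0.97, 0.58 and 0.81 in controls and at 1.42, 1.33, 0.87 and 0.77 after training. The first pair of trained arrays lay above every control and the second pair within the controls. The log2 change of 0.29 ± 0.15 did not pass (adjusted p = 0.116). It passed with quantile normalization (0.37, adjusted p = 0.0432), without young fear replicate 4 (0.40, adjusted p = 0.0414) and with the replicate number as block (adjusted p = 0.0391), while without young fear replicate 1 it was 0.19 (adjusted p = 0.354).

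Among the phosphatases of JNK and p38, Dusp8, which is strongly expressed in brain, was the member with the highest rise. Its level was 2.30, 2.11, 2.64 and 2.61 in young controls and 2.91, 2.91, 3.19 and 2.94 in young fear mice. Every trained array lay above every control array, with a log2 change of 0.57 ± 0.12 (1.49-fold higher, adjusted p = 0.000527). The rise kept its call in all 14 other settings, at 0.50 to 0.81, and with each array left out. Dusp10 fell. Its level was -1.74, -1.68, -2.30 and -1.99 in controls and -2.47, -2.38, -2.53 and -2.57 in trained mice, so control replicate 3 came close to the trained arrays without overlap. The log2 change was -0.56 ± 0.16 (1.47-fold lower, adjusted p = 0.00917). This call was lost with median scaling (-0.42, adjusted p = 0.102), quantile normalization (-0.47, adjusted p = 0.0719), normexp (-0.62, adjusted p = 0.101), the deposited table (-0.23, adjusted p = 0.507) and averaged array pairs (adjusted p = 0.0879). Dusp16, a phosphatase that binds JNK most strongly, lay at -1.79, -1.69, -2.34 and -1.63 in controls and -2.77, -2.37, -2.11 and -2.28 in trained mice. Control replicate 3 was lower than 2 trained arrays, so the groups overlapped, and the log2 change was -0.52 ± 0.19 (1.44-fold lower, adjusted p = 0.0350). The adjusted p ranged from 0.00310 to 0.149 over other settings, with the call lost in 5 of 14. Leaving out 1 array lost it in 5 of 8 cases: without young control replicate 1 (adjusted p = 0.0646), 2 (0.0897) or 4 (0.10), and without young fear replicate 1 (0.134) or 2 (0.0584). The other Dusp16 probes changed by -0.30 ± 0.14 and -0.03 ± 0.32 and did not pass (limma adjusted p = 0.0924 and 0.945 over all probes).

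The cytoplasmic phosphatases of ERK differed from each other. Dusp7 had the steepest change of all members. Its level was 2.74, 3.01, 3.32 and 3.74 in young controls and 1.58, 1.53, 2.20 and 2.15 in young fear mice. The highest trained array lay below the lowest control, with a log2 change of -1.33 ± 0.21 (2.52-fold lower, adjusted p = 2.98e-05). The fall kept its call in all 14 other settings, at -1.33 to -1.05, and with each array left out, at -1.49 to -1.15. Dusp6, whose transcription depends on ERK activity and which is often read as a sign of it, lay at 3.89, 3.95, 3.96 and 3.65 in controls and at 4.17, 4.16, 3.16 and 3.32 after training. Replicates 1 and 2 of the trained mice were thus above all controls and replicates 3 and 4 below all of them. Their mean log2 change of -0.16 ± 0.19 did not pass (adjusted p = 0.491), and its sign turned with quantile normalization (0.19), normexp (0.02), the deposited table (0.32) and without young fear replicate 3 (0.02).

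Dusp14, known from T cell signalling, lay at 1.36, 1.64, -0.05 and 1.48 in young controls and 1.30, 1.17, 1.01 and 0.78 in young fear mice. Young control replicate 3 was far below the other controls. The log2 change was -0.04 ± 0.27 (adjusted p = 0.904), and without that array it was -0.43 (adjusted p = 0.0949).

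At 16 months, training was compared with handling in the same way, and 0 of 9 members passed (limma, adjusted p under 0.05), where 0.143% of all genes did. At an unadjusted p under 0.05 there were 2 members, Dusp1 and Dusp8, and 3671 of 26632 genes (13.8%). Both had the sign they had in young mice. Dusp1 lay at -0.12, -0.06, 0.24 and 0.27 in old controls and at 0.41, 0.44, 0.32 and 0.45 in old fear mice. Its groups did not overlap, as for 3.19% of all genes in that direction, and the log2 change was 0.32 ± 0.14 (adjusted p = 0.317). Dusp8 lay at 2.42, 2.16, 2.20 and 2.06 in old controls and 2.42, 2.30, 2.52 and 2.66 in old fear mice, a log2 change of 0.26 ± 0.12 (adjusted p = 0.326). Of the members that fell in young mice, Dusp7 lay at 3.34, 4.15, 3.27 and 3.34 in old controls and 3.39, 3.52, 3.43 and 3.67 in old fear mice (log2 change -0.02 ± 0.21, adjusted p = 0.975). Dusp2 lay at -1.27, -1.01, -1.24 and -1.18 in old controls and at -1.06, -1.14, -1.29 and -1.24 in old fear mice (-0.01 ± 0.11, adjusted p = 0.981). The changes of Dusp10 (-0.07 ± 0.16) and Dusp14 (-0.02 ± 0.27) were within their errors of 0, and the signs of these 4 values turned with the normexp background correction and in the deposited table, those of Dusp2, Dusp7 and Dusp14 also with median scaling. For Dusp16 the change was -0.17 ± 0.19, for Dusp4 0.15 ± 0.15 and for Dusp6 0.09 ± 0.19. Of the thalamus markers 7 of 20 rose and 0 fell in this comparison, with a summed level of 56.3 to 70.1 in old fear mice and 44.9 to 48.4 in old controls, and their part in these values was not tested.

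The difference between the responses at the 2 ages was then tested directly, as the old change minus the young change. It passed for 2 of 9 members, both higher, where 23.8% of all genes passed, 15.8% as higher. For Dusp7 the difference was 1.31 ± 0.29 (limma adjusted p = 0.00256), against a median of 0.23 over all genes, and it passed in all 14 other settings with adjusted p of up to 0.0366. Of the choroid plexus markers 18 of 19 passed as higher in the same difference (median 2.65), and their part in it was not tested. For Dusp2 it was 0.52 ± 0.16 (adjusted p = 0.0183). The Dusp2 call was lost with median scaling (adjusted p = 0.115), normexp (0.132), array pairs as random block (0.0702) and array pairs averaged (0.199). The fit did not show a difference between the ages for Dusp1 (-0.15 ± 0.20, adjusted p = 0.651), Dusp8 (-0.31 ± 0.17, adjusted p = 0.206), Dusp10 (0.49 ± 0.23, adjusted p = 0.146) or Dusp16 (0.36 ± 0.27, adjusted p = 0.400). The Dusp8 difference passed with quantile normalization (-0.53, adjusted p = 0.0411).

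**Figure D2:**
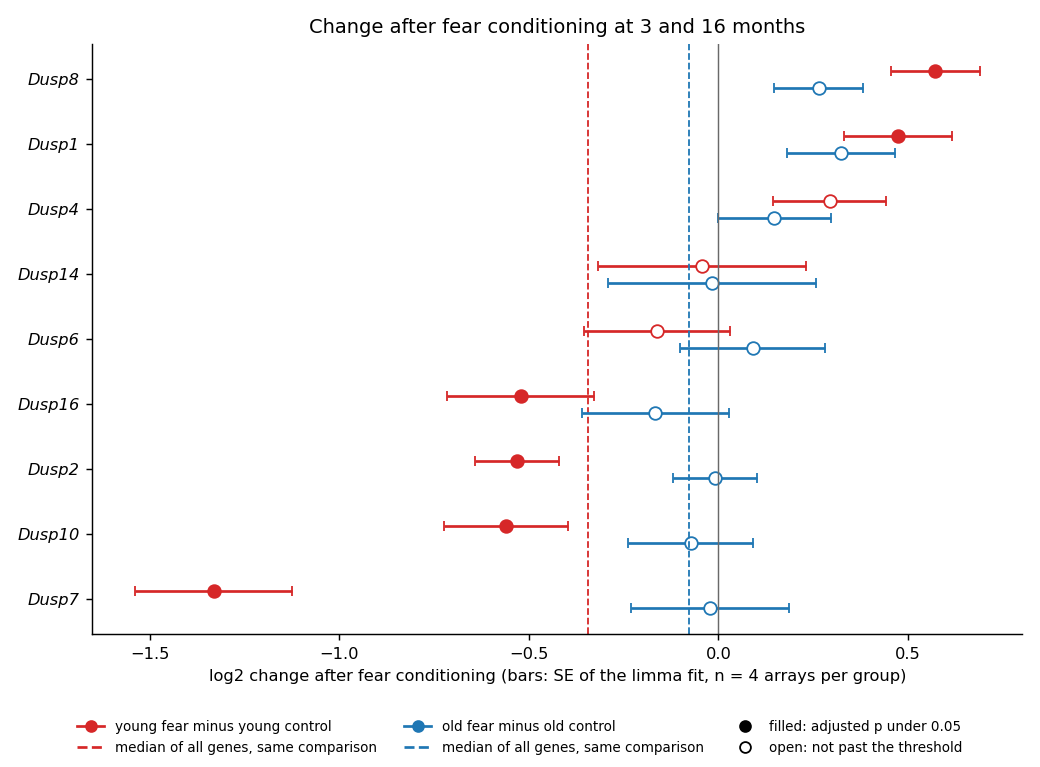
The x axis is the log2 change after fear conditioning with the SE of the limma fit, for the 9 members on the y axis, at 3 months (red) and 16 months (blue). Filled points passed the threshold and dashed lines mark the median of all genes, at -0.34 and -0.08. The open blue points at 16 months lie between -0.17 and 0.32, while the red points reach from -1.33 to 0.57.

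Control and fear arrays shared 4 slides, each with 1 array of every group, so the response could also be read within a slide. In young mice Dusp8 was higher on 4 of 4 slides (differences of 0.34 to 0.80), and Dusp2 (-0.79 to -0.32), Dusp7 (-1.58 to -1.12) and Dusp10 (-0.73 to -0.23) were lower on 4 of 4. Groups that do not overlap must have the same sign on every slide. The slide counts of these members, and that of Dusp1 in old mice, were thus fixed by the separation already given and add no support. Dusp1 was higher on 3 of 4 slides, from -0.02 to 0.86, and Dusp16 on 1 of 4, from -0.98 to 0.23. In old mice Dusp1 was higher on 4 of 4 slides (0.08 to 0.53) and Dusp8 on 4 of 4, the lowest difference being 0.00117 and the highest 0.60. Dusp7 was higher on 3 of 4 slides and Dusp2 on 1 of 4. Replicates 1 and 2 differed from replicates 3 and 4 in several groups, in either direction. With these array pairs as random block, the estimated correlation within a pair was 0.37. If the arrays of a pair are not independent, the SE and p values of the main fit are too small. In young fear mice the first pair exceeded the second by 0.53 for Dusp1, 0.56 for Dusp4 and 0.93 for Dusp6, and the difference was -0.62 for Dusp7 and -0.38 for Dusp16. Fos, the immediate early transcription factor gene, was higher in the first pair too, at 0.77, 0.82, -0.52 and -0.66 on young fear replicates 1 to 4, and so was Egr1, at 3.98, 3.99, 3.08 and 3.15. In young controls Fos was lower in the first pair, at -2.73, -2.82, -2.00 and -1.70. The members' differences between the pairs ran from -0.66 for Dusp7 to 0.78 for Dusp14 in young controls, with -0.20 for Dusp1, 0.22 for Dusp4 and 0.12 for Dusp6. They ran from -0.63 for Dusp16 and -0.59 for Dusp10 to 0.44 for Dusp7 in old controls, and from -0.23 for Dusp8 to 0.52 for Dusp6 in old fear mice.

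**Figure D3:**
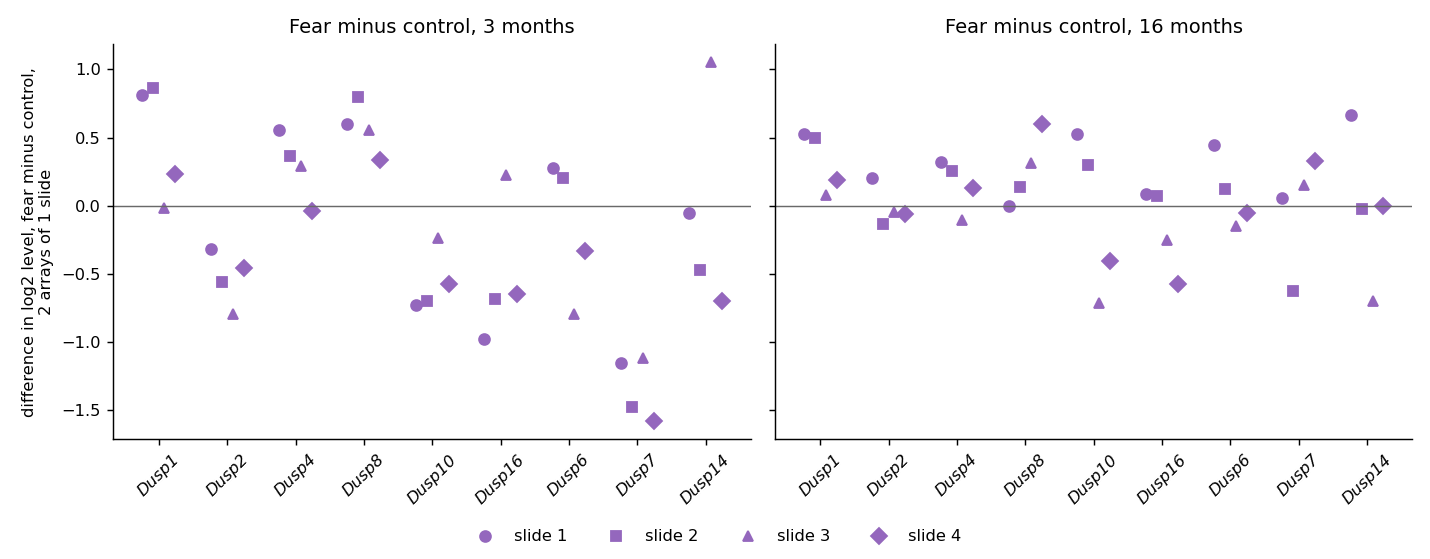
The y axis is the difference in log2 level between the fear array and the control array of the same slide, for each member on the x axis, with 1 symbol per slide. The left panel shows 3 months and the right panel 16 months. At 3 months the 4 Dusp7 points lie between -1.58 and -1.12 and the 4 Dusp8 points between 0.34 and 0.80, and at 16 months most members scatter around 0.

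Between old and young controls, 0 of 9 members passed (limma, adjusted p under 0.05), against 0.695% of all genes, and at an unadjusted p under 0.05 there were 0 members and 2564 genes (9.63%). The changes with age lay between -0.20 for Dusp8 and 0.48 for Dusp14. Trained old and trained young mice differed in 5 of 9 members, where 37.8% of all genes passed, 24.7% as higher and 13.1% as lower. In trained old mice Dusp7 was higher by 1.63 ± 0.21 (3.11-fold, adjusted p = 3.05e-06), Dusp16 by 0.68 ± 0.19 (adjusted p = 0.00776), Dusp2 by 0.54 ± 0.11 (adjusted p = 0.000501) and Dusp10 by 0.47 ± 0.16 (adjusted p = 0.0293). Dusp8 was lower, with a log2 change of -0.51 ± 0.12 (adjusted p = 0.00155). The 2 groups did not overlap for any of these 5, as for 42.8% of all genes. Choroid plexus markers were higher in trained old mice too, 18 of 19 (median 2.63), with a summed level of 54.4 to 70.2 against 6.84 to 10.0, and their part in these values was not tested. The Dusp10 call was lost in 7 of 14 other settings and in 5 of 8 with 1 array left out (young fear replicate 1, 3 or 4, or old fear replicate 1 or 2; adjusted p of up to 0.0999), and the Dusp16 call with averaged array pairs (adjusted p = 0.0686). With the replicate number as block the adjusted p of Dusp10 was 0.0679.

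The chamber without shock and the immediate shock were included to separate exposure from association. Shock-context and context mice lay on the same slides, and 0 of 9 members and 0 of 26632 genes passed between them (limma, adjusted p under 0.05). At an unadjusted p under 0.05 there were 1 member, Dusp2 (0.24 ± 0.11), and 1355 genes (5.09%). For Dusp7 the shock-context minus context change was -0.27 ± 0.21, for Dusp1 -0.09 ± 0.14, and for the other 6 members it lay between -0.10 for Dusp8 and 0.18 for Dusp16.

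Against young controls, 6 of 9 members passed in context mice, 4 as higher and 2 as lower, where 70.4% of all genes did, 14.2% as higher and 56.1% as lower. In shock-context mice 4 of 9 passed, 2 in each direction, where 66.8% of all genes did, 12.4% as higher and 54.4% as lower. These comparisons cross the 2 runs, they share their controls, and the median of all genes moved by -0.48 and -0.42. The summed level of the hippocampal neuron markers was 120 to 136 in context and 124 to 153 in shock-context mice, against 167 to 178 in young controls, and its part in these values was not tested. Dusp7 was higher in both, at 3.79, 4.07, 4.11 and 4.03 in context mice and 3.92, 3.66, 3.77 and 3.57 in shock-context mice. Its log2 change was 0.80 ± 0.21 (adjusted p = 0.00188) and 0.53 ± 0.21 (adjusted p = 0.0303). The second of these ranged from an adjusted p of 0.00492 to 0.128 with 1 array left out, and was lost without young control replicate 1 or 2 or shock-context replicate 1 or 3. Dusp14 was higher by 0.77 ± 0.27 (adjusted p = 0.0175) and 0.66 ± 0.27 (adjusted p = 0.0386). Without the low young control replicate 3 these became 0.38 (adjusted p = 0.0931) and 0.28 (adjusted p = 0.222). The first was also lost without context replicate 3 (adjusted p = 0.0704) and the second without shock-context replicate 1, 2 or 4 (0.0791, 0.0637 and 0.0671). With only the compared arrays in the fit both were lost (adjusted p = 0.105 and 0.117), and the second also with slide (0.0519) or array pairs (0.0845) as random block and with normexp (0.0697). The other Dusp14 probe was higher by 0.68 ± 0.13 and 0.77 ± 0.13 (limma adjusted p = 0.000133 and 4.40e-05 over all probes). Dusp2 was lower, at -1.82, -2.08, -1.53 and -1.69 in context mice (log2 change -0.58 ± 0.11, adjusted p = 8.80e-05) and at -1.72, -1.49, -1.56 and -1.39 in shock-context mice (-0.34 ± 0.11, adjusted p = 0.00987). With median scaling the first was -0.23 (adjusted p = 0.134) and the second turned to 0.04. The second call was lost in 5 of 13 other settings. Dusp6 was lower by a log2 change of -0.55 ± 0.19 (adjusted p = 0.0154) and -0.52 ± 0.19 (adjusted p = 0.0205). Its 8 arrays of the second run lay between 3.21 and 3.51, a narrow range beside the 3.16 to 4.17 of the young fear arrays, and both calls were lost with median scaling (-0.20 and -0.15), quantile normalization (-0.26 and -0.29), normexp (-0.22 and -0.18) and the deposited table (-0.06 and -0.08). The second was lost as well without shock-context replicate 3 (adjusted p = 0.0526). Dusp1 was 0.34 ± 0.14 higher in context mice (adjusted p = 0.0358), at 0.89, 0.50, 0.44 and 0.59, and Dusp8 0.32 ± 0.12 higher (adjusted p = 0.0189). The Dusp1 call was lost in 4 of 13 other settings and without control replicate 1, 2 or 4 or context replicate 1 or 4 (adjusted p of up to 0.139). The Dusp8 call was lost in 3 of 13 and without control replicate 1 or 2 or context replicate 3 (adjusted p of up to 0.0930). In shock-context mice Dusp1 changed by 0.25 ± 0.14 (adjusted p = 0.120) and Dusp8 by 0.22 ± 0.12 (adjusted p = 0.103).

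Young fear mice were also set against each of these groups, across the runs. Against context mice 3 of 9 members passed, all lower (65.9% of all genes, 18.4% as lower), and against shock-context mice 4 of 9, with 1 higher and 3 lower (64.9% of all genes, 46.5% as higher and 18.4% as lower). The 2 comparisons share the young fear arrays, and 18 of 19 choroid plexus markers were lower in each. The median log2 change of all genes was 0.33 against context and 0.31 against shock-context mice. Dusp7 was lower by a log2 change of -2.13 ± 0.21 (4.38-fold, adjusted p = 3.77e-08) and -1.86 ± 0.21 (3.63-fold, adjusted p = 2.69e-07). Dusp14 was lower, at -0.81 ± 0.27 (adjusted p = 0.0138) and -0.71 ± 0.27 (adjusted p = 0.0294). Without context replicate 3 the first was -0.65 (adjusted p = 0.0586), and the second was lost without young fear replicate 3 or 4 or shock-context replicate 1, 2 or 4 (adjusted p of up to 0.0831), and with array pairs as random block (0.0691), normexp (0.0960) and the deposited table (0.0881). The other Dusp14 probe changed by -0.67 ± 0.13 and -0.76 ± 0.13 (limma adjusted p = 0.000186 and 5.98e-05 over all probes). Dusp10 was lower, at -0.40 ± 0.16 (adjusted p = 0.0385) and -0.57 ± 0.16 (adjusted p = 0.00503). The first was lost without young fear replicate 1, 3 or 4 or context replicate 1 or 3 (adjusted p of up to 0.123). In other settings the first was lost in 4 of 13 and the second in 2 of 13. Dusp8 was 0.35 ± 0.12 higher than in shock-context mice (limma adjusted p = 0.0134), which is 0.04 relative to the median of all genes. The value of 0.35 became 0.11 with median scaling (adjusted p = 0.446) and 0.28 without young fear replicate 3 (adjusted p = 0.0558). For Dusp1, the change was 0.13 ± 0.14 against context (adjusted p = 0.440) and 0.22 ± 0.14 against shock-context mice (adjusted p = 0.183). Relative to the medians of all genes these were -0.21 and -0.09.

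Ordered by their means, the 6 groups ran from young fear (0.73) through young context (0.61), young shock-context (0.52), old fear (0.41) and young control (0.26) to old control (0.08) for Dusp1, and each group overlapped its neighbour. For Dusp8 the order was young fear (2.99), young context (2.74), young shock-context (2.64), old fear (2.47), young control (2.41) and old control (2.21), again with overlap between all neighbours. For Dusp7 it was young context (4.00), young shock-context (3.73), old control (3.53), old fear (3.50), young control (3.20) and young fear (1.87), and the last step alone was free of overlap. Dusp2 fell into old control (-1.17), old fear (-1.18) and young control (-1.20), apart from young shock-context (-1.54), young fear (-1.73) and young context (-1.78). This order depends on the scaling, since with median scaling the mean of shock-context mice was 0.04 above that of young controls. For Dusp10 young fear was lowest (-2.49), apart from young context (-2.09), and the groups above it overlapped from neighbour to neighbour up to young shock-context (-1.92). In the orders of Dusp4 (1.10 in young fear to 0.76 in old control), Dusp6 (3.86 in young control to 3.32 in young context), Dusp14 (1.87 in young context to 1.06 in young fear) and Dusp16 (-1.53 in old control to -2.38 in young fear), every group overlapped its neighbour. Context and shock-context arrays were run separately from the others, so their places in all these orders cannot be told apart from the run.

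For 3 members there was more than 1 probe, and the probes did not always move together. Dusp4 has a pair of probes that lie 2761 bases apart on chromosome 8 in build mm9, the build of the second run's file headers. The probe of the gene value above is at 35884806 to 35884865 and the other at 35882045 to 35882104, both on the plus strand. Their first 30 bases are shown to tell the probes apart, and neither was placed within the transcript here.
Probe A_51_P347333: tcaagggacttcagtaagataacaatgcaa
Probe A_51_P518051: aataacggcggtttccgctgccagagaaga
In young fear against young control mice the first changed by 0.29 ± 0.15 (adjusted p = 0.114 over all probes) and the second by -0.44 ± 0.12 (adjusted p = 0.00731), so the sign of the Dusp4 response depends on the probe. In context mice they changed by 0.23 ± 0.15 and -0.43 ± 0.12. The Dusp14 probes, 677 bases apart, both passed as higher in context mice, at 0.77 ± 0.27 and 0.68 ± 0.13. The second lay at -0.65 to -0.20 in young controls and at 0.05 to 0.34 in context mice, and did not share the low value of young control replicate 3. Dusp16 has 3 probes over 21893 bases. That of the gene value and A_52_P374825 changed by -0.52 and -0.30 after training in young mice, and the second did not pass (adjusted p = 0.0924). In context mice they had opposite signs, at -0.37 ± 0.19 and 0.44 ± 0.14. In young fear against context mice they changed by -0.15 ± 0.19 and -0.74 ± 0.14, and against shock-context mice by -0.33 ± 0.19 and -0.70 ± 0.14. Of these, A_52_P374825 passed in both comparisons (limma adjusted p = 0.00012 and 0.000227 over all probes), and the probe of the gene value in neither. The third, A_52_P492081, changed by -0.03 ± 0.32 after training in young mice (adjusted p = 0.945), and was well above background on all arrays of both groups. It was not well above background on 3 of 4 context and 4 of 4 shock-context arrays, and no change is given for it there. The single Dusp1 probe is placed over 11 of its 60 bases in the mm9 headers and over 58 in the mm7 headers of the first run.

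**Figure D4:**
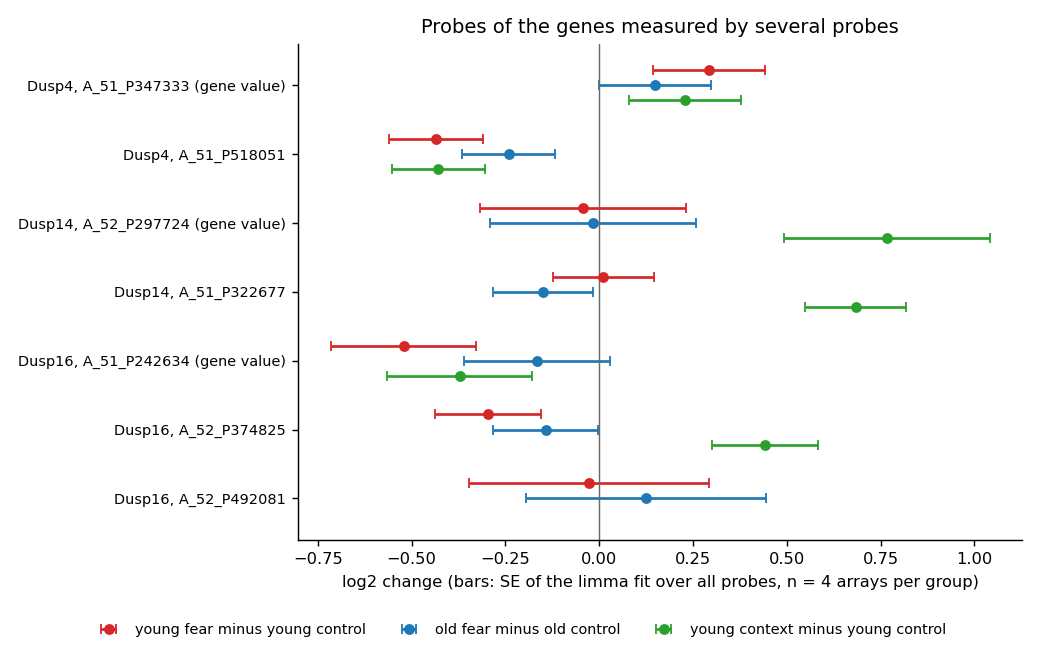
The x axis is the log2 change of each probe with the SE of the limma fit, for young fear minus young control (red), old fear minus old control (blue) and young context minus young control (green), and the y axis lists the 7 probes of Dusp4, Dusp14 and Dusp16. The red points of the Dusp4 probes lie on opposite sides of 0, at 0.29 and -0.44, and the context value of the dim probe A_52_P492081 is left out.

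To describe which genes had a similar pattern, each member was correlated with 17138 genes over the 16 control and fear arrays. These arrays share slides and groups, so each r is a description. Fos was the gene most like Dusp1 (r = 0.91, and 0.85 for deviations from the group means), ahead of Zfp87 (0.90) and Camk2n2 (0.90). Fos itself changed by 2.41 ± 0.29 at 3 months (limma adjusted p = 1.52e-06) and by 1.78 ± 0.29 at 16 months (adjusted p = 0.0107). Dusp6 was most like Tesk1 (0.92), Ier5 (0.92), an immediate early gene, and Brd2 (0.91). Dusp10 was most like Mnd1 (0.95), Jun (0.95), a partner of Fos in the AP-1 factor, and Smim8 (0.93). The genes closest to Dusp7 were Arhgap10, Ddx6 and Hsd17b7 (0.97 each), and among those closest to Dusp8 were Dop1a (0.95) and Arhgef4 (0.94). Slc27a2 (0.89) and Dgkq (0.87) were among those nearest to Dusp4. Dusp2 stood nearest to Elp6, Vdac2 and Fra10ac1 (0.97 each), Dusp14 to Foxred2 (0.92), Smg8 (0.89) and H2-T22 (0.89), and Dusp16 to Rexo2 (0.96), Rps24 (0.93) and Epyc (0.93). Between members, Dusp4 and Dusp6 varied together within groups (0.85 for deviations from the group means), and Dusp2 and Dusp8 ran opposite over the 16 arrays (-0.85, and -0.44 for deviations).

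**Figure D5:**
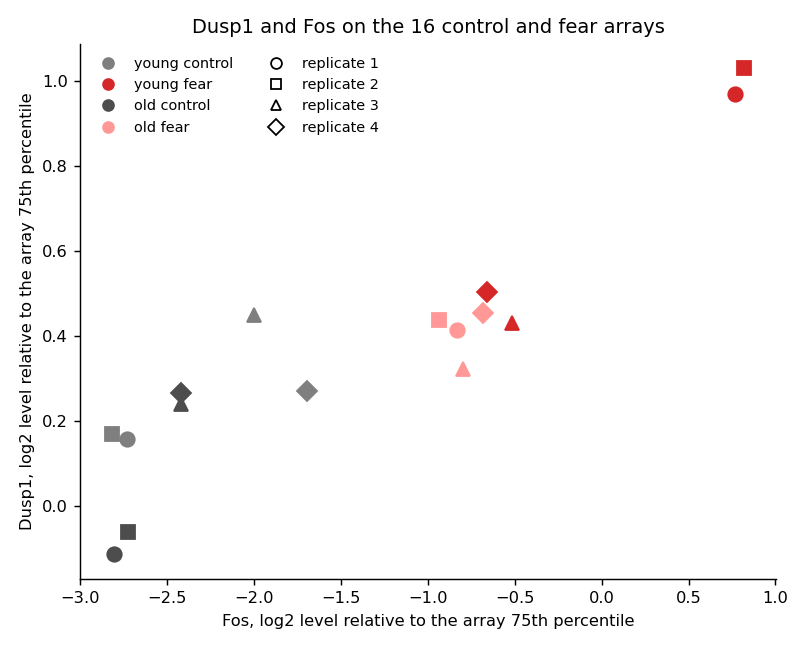
The x axis is the log2 level of Fos and the y axis that of Dusp1, both relative to the array's 75th percentile, with 1 point for each of the 16 control and fear arrays, colour for the group and symbol for the replicate. Young fear replicates 1 and 2 stand alone at the upper right, at 0.97 and 1.03 for Dusp1, and young fear replicates 3 and 4 lie lower, at 0.43 and 0.50, where the old fear arrays lie at 0.32 to 0.45.

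Other genes of the pathway were read from lists, of which the same 43.2% background applies in young mice. Of 21 other dual-specificity phosphatases, 3 rose and 6 fell after training at 3 months, with a median log2 change of -0.22. Dusp3, another phosphatase of ERK and JNK, changed by -1.48 ± 0.18 and Dusp19 by -1.01 ± 0.11, and Ssh3, a slingshot phosphatase that acts on cofilin, by 1.30 ± 0.18. Of 21 MAP kinases and MAP2 kinases, 9 rose and 4 fell (median 0.13). Map2k1, the kinase that activates ERK, rose by 0.76 ± 0.10, from 3.26 to 3.62 in controls to 4.13 to 4.19 after training, and the JNK activators Map2k7 and Map2k4 rose by 0.87 ± 0.10 and 0.64 ± 0.11. Among 27 genes of Ras, Raf and upstream activators, 7 rose, with the exchange factor Sos1 at 1.03 ± 0.10, and 8 fell, with Rasgrp2 at -1.05 ± 0.10 and Map3k1 at -0.81 ± 0.11 (median -0.20).

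The brakes on ERK outside the family had 9 rises and 2 falls among 20 measured (median 0.26). Spred2, which inhibits Raf activation, rose by 1.04 ± 0.09 and lay at 1.44 to 1.68 in trained mice and 0.27 to 0.60 in controls, and the Ras GTPase activators Rasa2 and Rasa1 rose by 0.62 ± 0.11 and 0.45 ± 0.10. Downstream kinases and factors had 7 rises and 7 falls among 20 (median -0.14). The kinases Rps6ka5 and Rps6ka4 rose by 1.04 ± 0.14 and 0.64 ± 0.08, and the transcription factor gene Mef2c changed by -1.26 ± 0.15. Immediate early genes had 7 rises and 2 falls among 21 (median 0.39). Homer1 rose by 0.95 ± 0.14 and Fosl2 by 0.72 ± 0.15. Each gene named from these lists in young mice had a limma adjusted p of at most 0.000847. At 16 months 0 genes of the first 5 of these lists passed (limma, adjusted p under 0.05), and at an unadjusted p under 0.05 there were 4 of 21 other dual-specificity phosphatases, 5 of 21 MAP kinases and MAP2 kinases, 6 of 27 upstream activators, 6 of 20 brakes and 1 of 20 downstream genes, where 13.8% of all genes were under it. Of the immediate early genes 2 of 21 rose, Fos and Egr2 (1.72 ± 0.31, adjusted p = 0.0215), where 0.143% of all genes passed. Arc (0.41 ± 0.26) and Egr1 (0.47 ± 0.19) did not pass at 3 months (adjusted p = 0.195 and 0.0547).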

How the data were processed

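Each of 24 mice gave 1 Agilent 1-colour array, in 6 groups of 4. Per the file headers, the deposited scanner files were written by Agilent Feature Extraction (version 9.5.3.1) and give an intensity per spot, with background subtracted and no scaling between arrays. Limma is named among the tools in the submitters' processing notes. A deposited table of the authors holds values taken here as log2 from the values alone, since no label states the scale, and it follows each array's median signal (Spearman 1, column medians of 8.57). It served as an alternative.

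Here log2 of that intensity was used, minus the array's own 75th percentile. Control spots and outlier spots were dropped and repeat spots averaged. A probe entered the fit when 4 or more of the 24 arrays measured it well above background, and the brightest probe on average represented its gene. Names follow the RefSeq accession of the probe where the reference holds it (27041 of 43379 spots) and the file's name otherwise. All arrays entered 1 fit of group means (limma 3.58.1 under R 4.3.3, with statmod 1.5.0), which leaves 18 degrees of freedom for the spread. The 10 comparisons are contrasts of that fit, two-sided, with Benjamini-Hochberg adjustment over 26632 genes at 0.05. SE is that of the fit. The method was tested on simulated data in which all arrays were independent. That test therefore cannot speak to arrays that are correlated within a pair or a slide.

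The members and gene lists were chosen with earlier results of these data known. All members are named, with up to 3 called genes of smallest adjusted p per pathway list and comparison, the reference genes Fos, Arc and Egr1, and the 3 genes most like each member, some of which are not reported here. Of the pathway lists, Elk1 was not measured or did not pass the filter, and Sef is another name of Il17rd. Alternatives were median scaling, quantile normalization, normexp with offset 50, no filter or a filter on all 24 arrays, outliers kept, every probe, the deposited table, slide or array pairs as random block, averaged array pairs, replicate block, eBayes with trend, a fit on the compared arrays alone, and leaving out each array. Replicate n of each control and fear group lies on the same slide. The deviations of same-numbered arrays from their group means correlated over 0.1 in 15 of 24 pairs (-0.42 to 0.65). The numbers are treated as names, not as pairs.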

Additional observations from a re-analysis of the deposited data

Results flagged for a closer look

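In 5 of 54 groups of 4 arrays, 1 array lay far from the other 3 by Dixon's test, where chance gives about 1 in 20. Dusp7 was 4.15 on old control replicate 2 and 3.27 to 3.34 on the others. Dusp8 was 3.19 on young fear replicate 3 and 2.91 to 2.94 on the others. Dusp10 was -1.71 on young shock-context replicate 4 and -2.02 to -1.97 on the others. Dusp14 was -0.048 on young control replicate 3 and 1.36 to 1.64 on the others. The other Dusp14 probe did not share this low value, at -0.20 on that array and -0.65 to -0.62 on the other young controls. Dusp16 was -2.75 on young context replicate 3 and -2.09 to -2.02 on the others. The fear response differed between the ages, by the test of the difference in limma, for Dusp2 (0.52, adjusted p = 0.0183) and Dusp7 (1.31, adjusted p = 0.00256). Of all genes 23.8% passed that test, with a median difference of 0.23, and the Dusp2 call was lost in 4 of 14 other settings.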

How the results depend on the processing

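The calls of Dusp2, Dusp7 and Dusp8 in young fear against young control mice, and of Dusp7 in the age difference, held in all 14 other settings and with each array left out. The count of members called in young fear against young control mice was 6 and became 3 with averaged array pairs. Of all 26632 genes, 11510 and 7392 were called there. In the age difference 2 members became 1 with median scaling, normexp, array pairs as random block and averaged pairs. The count of all genes went from 6351 to 5257, 2135, 4299 and 2367 in these settings. In old fear against young fear mice 5 became 3 with averaged pairs (all genes 10072 and 6542). In shock-context mice against young controls 4 became 2 with normexp, the deposited table and only the compared arrays. All genes went from 17783 to 13941, 14902 and 17113. In young fear against shock-context mice 4 became 1 with normexp (all genes 17284 and 8213). With 1 array left out the counts ranged from 5 to 7 (young fear against control), 4 to 5 (old against young fear), 4 to 6 (context against control), 2 to 5 (shock-context against control), 2 to 3 and 3 to 4 (young fear against context and shock-context), and stayed at 2 in the age difference and at 0 elsewhere. The counts over all genes with 1 array left out are not reported here. With the replicate block, 7 members passed in young fear against control mice and 4 in old against young fear mice. Of all 26632 genes, 14515 and 11530 passed with this block. The replicate block gave Dusp4 a call in young fear against control mice and ended that of Dusp10 in old against young fear mice. It changed no other call.

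These values changed sign, and the cause was not tested. With median scaling, quantile normalization and the deposited table, Dusp14 in young mice was 0.0990, 0.0528 and 0.0924. Dusp6 in young mice was 0.192 with quantile normalization, 0.0225 with normexp and 0.315 in the deposited table. At 16 months, Dusp2 was 0.0550, 0.000668, 0.0134 and 0.0906, and Dusp7 0.0429, 0.0196, 0.161 and 0.190, with median scaling, quantile normalization, normexp and the deposited table. Dusp10 was 0.102 and 0.134 with normexp and the deposited table, and Dusp14 0.0480, 0.154 and 0.156 with median scaling, normexp and the deposited table. In the age difference Dusp6 was -0.0534 and -0.0708 with quantile normalization and the deposited table, and Dusp14 -0.0511 and -0.0574 with median scaling and quantile normalization. Dusp2 in shock-context against control mice was 0.0360 with median scaling. With 1 array left out, the change ranged in young mice from -0.318 to 0.0189 for Dusp6 and -0.428 to 0.134 for Dusp14, at 16 months from -0.0496 to 0.0463 for Dusp2, -0.0171 to 0.188 for Dusp6, -0.105 to 0.187 for Dusp7, -0.185 to 0.0537 for Dusp10 and -0.136 to 0.131 for Dusp14, and in the age difference from -0.150 to 0.412 for Dusp14.

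Over all genes, 11510 passed in young fear against control mice, 5534 with normexp and 7392 with averaged pairs. At 16 months 38 passed, with 137 by quantile normalization, 145 with slide as random block, 61 with the stricter filter, 18 with the replicate block, 11 with pairs as random block, 3 with only the compared arrays, 1 with averaged pairs and 0 with normexp. Of genes called in young fear against control mice 30.5% were higher, and 44.8% and 44.3% with median scaling and quantile normalization.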
